A study of Rattus norvegicus with 6 samples.

Results

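Intervals enriched for N6-methyladenosine (m6A) that lie over 2 or more genes of the same strand are described here. They were chosen by grouping the authors' deposited list by chromosome, start and end, and keeping each distinct interval listed with at least 2 Ensembl gene IDs that all have 1 strand. The rule kept 680 of 29268 distinct intervals (2.32%, 95% Wilson interval 2.16 to 2.50). They are set beside the 26755 intervals listed for a single gene and the 1833 listed for genes on both strands.

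The list came from methylated RNA immunoprecipitation sequencing (MeRIP-seq) of penile tissue from Sprague-Dawley rat fetuses. The control group held 3 samples and the case group 3. Pregnant dams received corn oil as the vehicle control, or the anti-androgenic plasticizer di-(2-ethylhexyl) phthalate (DEHP), by gavage on gestational days (GD) 12 to 19. Fetuses were collected at GD19.5, and the series contrasts male fetuses with hypospadias, in which the urethra opens on the underside of the penis, with normal male fetuses. The titles say control and case only, and the labels give neither the dose nor the number of fetuses behind each sample. The list holds 1 set of positions for the whole series and 0 columns of values per sample, so sequencing depth is unknown and no interval can be compared between case and control. It pairs gene IDs with no symbols, so markers of the labelled tissue could not be checked and no gene function is given.

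m6A is placed on messenger RNA by a nuclear methyltransferase complex with METTL3 as its catalytic subunit, is removed by the demethylases FTO and ALKBH5, and is bound by YTH-domain proteins that affect splicing, translation and decay. In mammalian messenger RNA it is common in long internal exons and around the stop codon. In MeRIP-seq, RNA is broken into fragments, those bound by an m6A antibody are sequenced, and stretches with more fragments than in the input RNA are listed as enriched. A genome annotation then gives each stretch a gene. Where annotated genes overlap, as when a small gene lies in an intron of a larger one, when transcripts read through into the next gene, or when 1 locus carries several gene IDs, a stretch can be given to each of them. Genes on opposite strands can be told apart by a library that keeps strand, whereas strand does not separate genes on the same strand.

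Same-strand intervals were the smaller part of those given to several genes. They made up 27.1% of the 2513 intervals with 2 or more genes (95% Wilson interval 25.4 to 28.8). Most, 632 of 680 (92.9%), were listed for 2 genes, 44 (6.47%) for 3 and 4 (0.588%) for 4. Genes on the plus strand held 350 of them (51.5%, 95% Wilson interval 47.7 to 55.2), against 50.4% of the single-gene intervals, so neither strand was favoured beyond counting error. Wilson intervals here cover counting error only. Intervals of 1 list are not replicates of anything, and neighbours over the same genes share their source, so no difference below was tested and no p-value is given.

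In width, same-strand intervals were close to those of a single gene. The median distance from start to end was 275 bp (95% interval from order statistics 250 to 275), with quartiles of 175 and 504 bp. Single-gene intervals had a median of 250 bp (95% interval 250 to 275), with quartiles of 150 and 525 bp. These intervals overlap, and the medians lay 1 step of 25 bp apart. Most widths in the list are whole multiples of 25 bp. This held for 560 of the 680 same-strand intervals (82.4%, 95% Wilson interval 79.3 to 85.0) and for 81.7% of the single-gene intervals (81.3 to 82.2).

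Intervals over genes of both strands differed in some measures of width and not in others. Only 66.6% of them had a width in whole steps of 25 bp (95% Wilson interval 64.4 to 68.7), a range that does not meet that of the same-strand intervals. Their whole-step widths had a median of 175 bp, against 225 bp (95% interval 200 to 250) for same-strand intervals and 225 bp (200 to 225) for single-gene intervals. Their other widths had a median of 732.5 bp (95% interval 637 to 833). The 120 same-strand intervals off the 25 bp steps had a median of 1584 bp (1021 to 2799), and the single-gene ones 1919 bp (1797 to 2047). On each of these measures the same-strand value thus lay nearer to the single-gene value than to the both-strand one. Other measures went the other way. Over all widths, both-strand intervals had the same median as same-strand ones, 275 bp (95% interval 250 to 277). Their share of intervals of 50 bp was 8.24% (95% Wilson interval 7.06 to 9.59), also that of same-strand intervals.

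**Figure D1:**
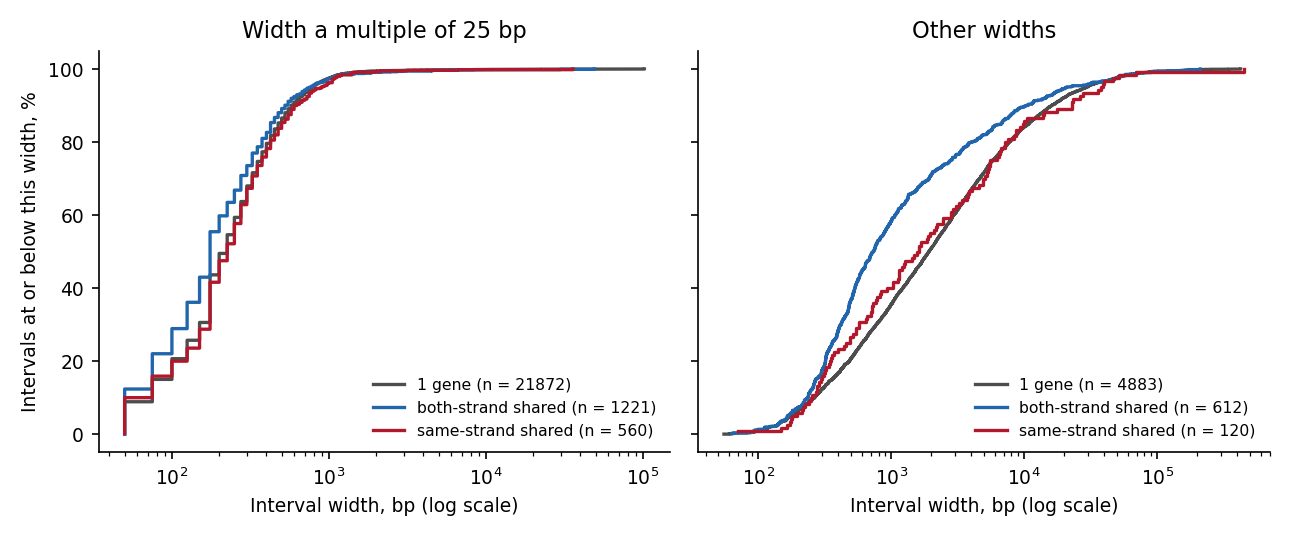
Cumulative share of intervals (vertical axis, %) at or below each width (horizontal axis, bp, log scale), for widths that are multiples of 25 bp on the left and for all other widths on the right. The lines of same-strand and single-gene intervals run close together, and the line of both-strand intervals lies above them over most of the range, with whole-step medians of 225, 225 and 175 bp.

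The commonest widths were shared too. A width of 175 bp was listed for 72 same-strand intervals (10.6%) and for 10.7% of single-gene intervals. The narrowest width, 50 bp, was listed for 56 (8.24%, 95% Wilson interval 6.40 to 10.5), against 7.26% of single-gene intervals. At the other end, 93 (13.7%) were wider than 1000 bp, against 13.8%, and 18 (2.65%, 95% Wilson interval 1.68 to 4.15) were wider than 10000 bp, against 3.01%. The Wilson interval of each of these same-strand shares included the single-gene share. Widths are genomic and may span introns, which were not assigned, so they are no lengths of methylated RNA.

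The 680 intervals fell on 314 distinct sets of genes and involved 600 genes, 4.56% of the 13146 genes in the list. Of the sets, 292 were pairs, 21 were trios and 1 held 4 genes. A set held 2.17 same-strand intervals on average (SD 1.51, n = 314 sets). In 136 sets (43.3%) there was a single one, and the 178 sets with 2 or more held 544 intervals (80.0% of all). At the top, 25 sets with 5 or more held 149 intervals (21.9%). Where a set had several, the stretch from the first to the last was short, with a median of 3.59 kb (95% interval 3.10 to 5.09) and quartiles of 1.25 and 10.02 kb.

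The form of an interval went with how many its gene set held. In the 136 sets with 1 interval, 66.2% of intervals had whole-step widths (95% Wilson interval 57.9 to 73.6), against 86.4% (83.3 to 89.0) in sets with 2 or more. Widths over 10000 bp made up 5.88% (3.01 to 11.2) of the first and 1.84% (1.0015 to 3.35) of the second, and these ranges overlap. A split in the same direction was present among single-gene intervals, where 74.0% had whole-step widths (72.8 to 75.2) in genes with 1 such interval and 83.5% (83.0 to 84.0) in genes with more. With 1 interval kept per gene set, the one with the lowest start, the whole-step share fell to 75.2% (70.1 to 79.6). With 1 kept per gene in the same way, that of single-gene intervals was 79.9% (79.1 to 80.6).

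ENSRNOG00000000785 and ENSRNOG00000062809, on the plus strand of chromosome 20, shared the most. Their 13 intervals lay between 1991963 and 2017219, a stretch of 25.3 kb in the positions of the file, which names no genome build. From 5' to 3' the widths were 50, 300, 275, 175, 150, 1075, 300, 75, 175, 50, 325, 475 and 225 bp, all in whole steps of 25 bp. The last shared interval, of 250 bp, started at 2018220 and was listed for ENSRNOG00000000786 as well. Neither of the first 2 genes held any interval that the other lacked, so the list gives the 2 IDs 1 and the same m6A pattern.

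The next 3 sets by number of intervals were also pairs with identical lists. ENSRNOG00000069504 and ENSRNOG00000069797, on the plus strand of chromosome 4 from 11441336 to 11449547, shared 7 intervals of 200 to 2100 bp. ENSRNOG00000051563 and ENSRNOG00000069262, on the minus strand of chromosome 7 from 10203007 to 10219970, shared 7 of 50 to 450 bp. ENSRNOG00000006412 and ENSRNOG00000065001, also on the minus strand of chromosome 7 and from 89583768 to 89590448, shared 7 of 150 to 3701 bp, and 6 of these had whole-step widths. In each of these 3 pairs the shared stretch was shorter than in the chromosome 20 pair, from 6.68 to 17.0 kb.

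Another 10 sets tied at 6 intervals, of which 3 had identical lists, 6 had contained lists and 1, a trio, had both. ENSRNOG00000019416 and ENSRNOG00000065649, on the minus strand of chromosome 1, were the first of them by chromosome and start. They shared 6 intervals from 79859352 to 79866652, the widest of 5501 bp. ENSRNOG00000019416 held 3 further intervals of its own, all on the 3' side, down to 79850014, and ENSRNOG00000065649 held none. The second gene's list was thus contained in that of the first.

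The lists of 2 genes that share a same-strand interval were related in 3 ways. There were 347 such pairs, with each trio counted as its 3 pairs. In 227 pairs (65.4%, 95% Wilson interval 60.3 to 70.2) every interval of 1 gene was also listed for the other, which held more. In 96 pairs (27.7%, 23.2 to 32.6) the lists were identical. In 24 pairs (6.92%, 4.69 to 10.1) both genes held intervals of their own. For this comparison all intervals of a gene counted, and an interval was a gene's own if the other gene of the pair lacked it. Such own intervals could still be listed for further genes. In 31 pairs the shared ones included some that were also listed for a gene on the other strand.

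Identical lists were not only lists of 1. Of the 96 identical pairs, 35 rested on 1 interval and 40 on 3 or more, with a median of 2 and a maximum of 14. Among the 120 pairs of any kind that shared 3 or more intervals, 33.3% had identical lists, 57.5% were contained and 9.17% had own intervals on both sides. Trios of gene IDs with identical lists entered as several pairs, so these counts are of pairs and repeat some loci.

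Contained pairs showed where the larger gene went on. Its own intervals lay only on the 3' side of the shared stretch in 108 of 227 pairs (47.6%, 95% Wilson interval 41.2 to 54.1), only on the 5' side in 69 (30.4%, 24.8 to 36.7) and on both sides in 50 (22.03%, 17.1 to 27.9). The first 2 ranges do not meet, but they treat the pairs as independent. Trios entered as several pairs and some genes recur, so these ranges do not settle whether the 3' and 5' shares differ. The larger gene shared a median of 37.5% of its intervals with the smaller one (95% interval 33.3 to 42.9). It held a median of 3 that the smaller one lacked (quartiles 2 and 5), some of them listed for further genes. The nearest own interval lay a median of 7916 bp away on the 3' side (95% interval 5806 to 12694, n = 158 pairs) and 5581 bp on the 5' side (3224 to 8525, n = 119 pairs), ranges that overlap.

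Where both genes had intervals of their own, the order was the same in all 24 pairs. One gene continued on the 5' side of the shared stretch and the other on the 3' side, as a tandem overlap. In 0 of the 347 pairs did an own interval of either gene lie between shared ones, so each shared stretch was unbroken. The sources used here do not say whether the authors gave genes by exon or by whole gene span. With whole spans, no other order in the 24 pairs and no broken stretch is possible. Both results would then be fixed in advance, and the part of that choice in either was not tested. The 24 pairs are also not all separate loci, since ENSRNOG00000056837 recurs with gene IDs whose lists are identical to each other.

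**Figure D2:**
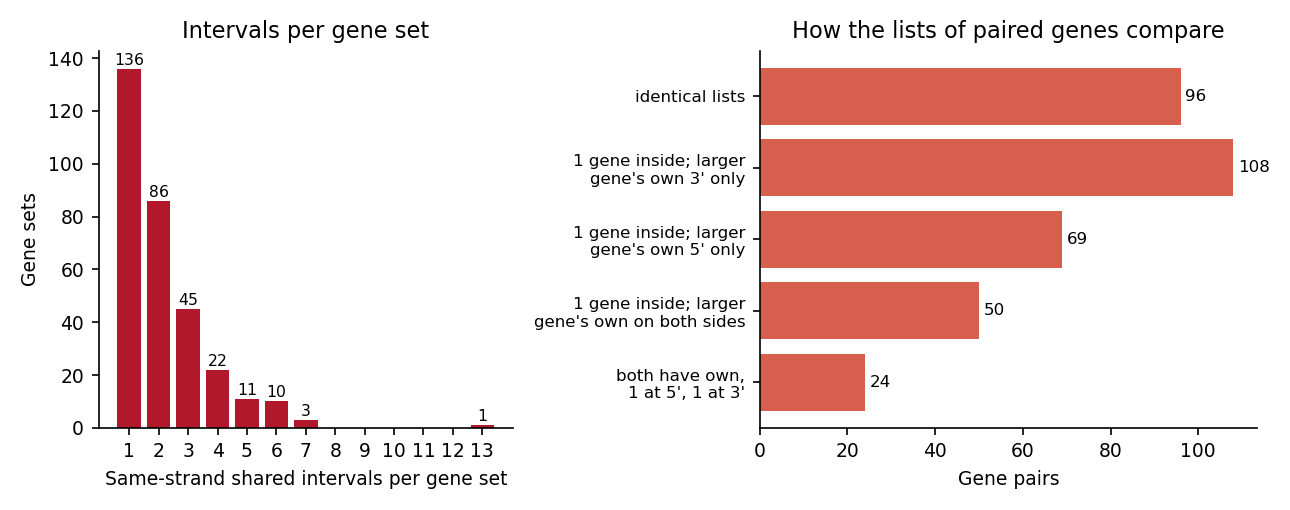
Left, number of gene sets (vertical axis) by the number of same-strand shared intervals each held (horizontal axis). Right, number of gene pairs (horizontal axis) by how the full interval lists of both genes compared. Sets with 1 interval number 136, and pairs in which 1 list was contained in the other with own intervals on the 3' side alone form the longest bar, 108 of 347.

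Widths differed little between these kinds of pair. Among intervals of exactly 2 genes, the median was 275 bp (95% interval 225 to 300, n = 202) in identical pairs, 274 bp (242 to 300, n = 395) in contained pairs and 344 bp (200 to 625, n = 35) in pairs where both had their own. Whole-step shares were 85.6% (95% Wilson interval 80.1 to 89.8), 81.3% (77.1 to 84.8) and 82.9% (67.3 to 91.9), all overlapping.

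The interval with the most genes lay in a tandem overlap of this kind. On the minus strand of chromosome 10, between 61460224 and 61460948, 4 intervals of 225, 75, 75 and 50 bp were each listed for ENSRNOG00000003971, ENSRNOG00000056837, ENSRNOG00000070572 and ENSRNOG00000070896. ENSRNOG00000003971, ENSRNOG00000070572 and ENSRNOG00000070896 had 1 identical list of 11 intervals, 7 of them on the 5' side of this stretch, up to 61607138. ENSRNOG00000056837 held 2 intervals of its own on the 3' side, down to 61262691. The 4 intervals were thus at the 3' end of the interval lists of 3 gene IDs and at the 5' end of that of the other. Where the genes themselves end was not available. Trios took up the remaining intervals with over 2 genes. In 5 of 21 trios all lists were identical, in 9 some but not all were, and in 7 none were. In the first trio along chromosome 1, ENSRNOG00000013553, ENSRNOG00000056362 and ENSRNOG00000064293 shared a 775 bp interval from 134218497 to 134219271, which was the whole list of ENSRNOG00000013553.

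Most genes had a single partner, and a few had several in a row. Of the 600 genes, 519 (86.5%) shared same-strand intervals with 1 other gene, 70 (11.7%) with 2, 9 with 3 and 2 with 4. Linked through shared intervals, the genes formed 276 groups, of which 237 held 2 genes, 32 held 3, 5 held 4 and 2 held 5. Of the 81 genes with 2 or more partners, 19 (23.5%, 95% Wilson interval 15.6 to 33.8) had partners that shared no same-strand interval with each other.

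Both genes with 4 partners were of that last kind, and their partners had no interval that was not also listed for them. ENSRNOG00000021056, on the minus strand of chromosome 1 from 96293535 to 96448275, held 15 intervals over 155 kb. Of these, 10 were shared on its strand, 3 were shared with genes of both strands and 2 were listed for it alone. In the direction of the strand it shared 2 with ENSRNOG00000028781, 2 with ENSRNOG00000021104, 4 with ENSRNOG00000021063 and 2 with ENSRNOG00000021058, each group apart from the next. ENSRNOG00000031607, on the plus strand of chromosome 20 from 2641970 to 2674064, had no interval that was not shared. Its 5 intervals went to ENSRNOG00000029386 (358 bp), ENSRNOG00000032664 (709 bp), ENSRNOG00000000795 (100 and 283 bp) and ENSRNOG00000000777 (150 bp). For that gene ID the list holds no m6A interval outside those of its 4 partners.

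Of the 9 genes with 3 partners, 3 showed the same arrangement and 6 did not. Those 3 came first by chromosome and start, the order that broke the tie. ENSRNOG00000019666, on the plus strand of chromosome 1 from 205765342 to 205797967, held 12 intervals, 9 of them shared on its strand. It shared 3 with ENSRNOG00000019701, then 5 with ENSRNOG00000026005, then a 4048 bp interval with ENSRNOG00000019724. ENSRNOG00000006281, on the minus strand of chromosome 4 from 81270043 to 81308674, held 11 intervals and shared 9 of them. From 5' to 3' these were 2 of 175 bp with ENSRNOG00000048917, 6 with ENSRNOG00000047951 and a 650 bp interval with ENSRNOG00000027365. ENSRNOG00000031387, on the minus strand of chromosome 7 from 9424178 to 9516528, held 8 intervals and shared 4 of them on its strand. These were 100 bp with ENSRNOG00000016203, 1627 bp with ENSRNOG00000024549 and 2 of 275 and 325 bp with ENSRNOG00000024568. In each of these 3, and in both genes with 4 partners, the complete lists of several partners lay 1 after another within the list of the larger gene. In all of them the partners shared no same-strand interval with each other. If the authors gave genes by whole span, no other order of such lists is possible, and the part of that choice was not tested. The other 6 genes with 3 partners, all on chromosome 10, had partners that also shared same-strand intervals with each other. They were the 4 gene IDs of the tandem overlap described above, and ENSRNOG00000046639 and ENSRNOG00000070390, which had 7 intervals in common and the same 2 further partners, ENSRNOG00000018242 and ENSRNOG00000018550. These 6 were named after their values were seen.

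**Figure D3:**
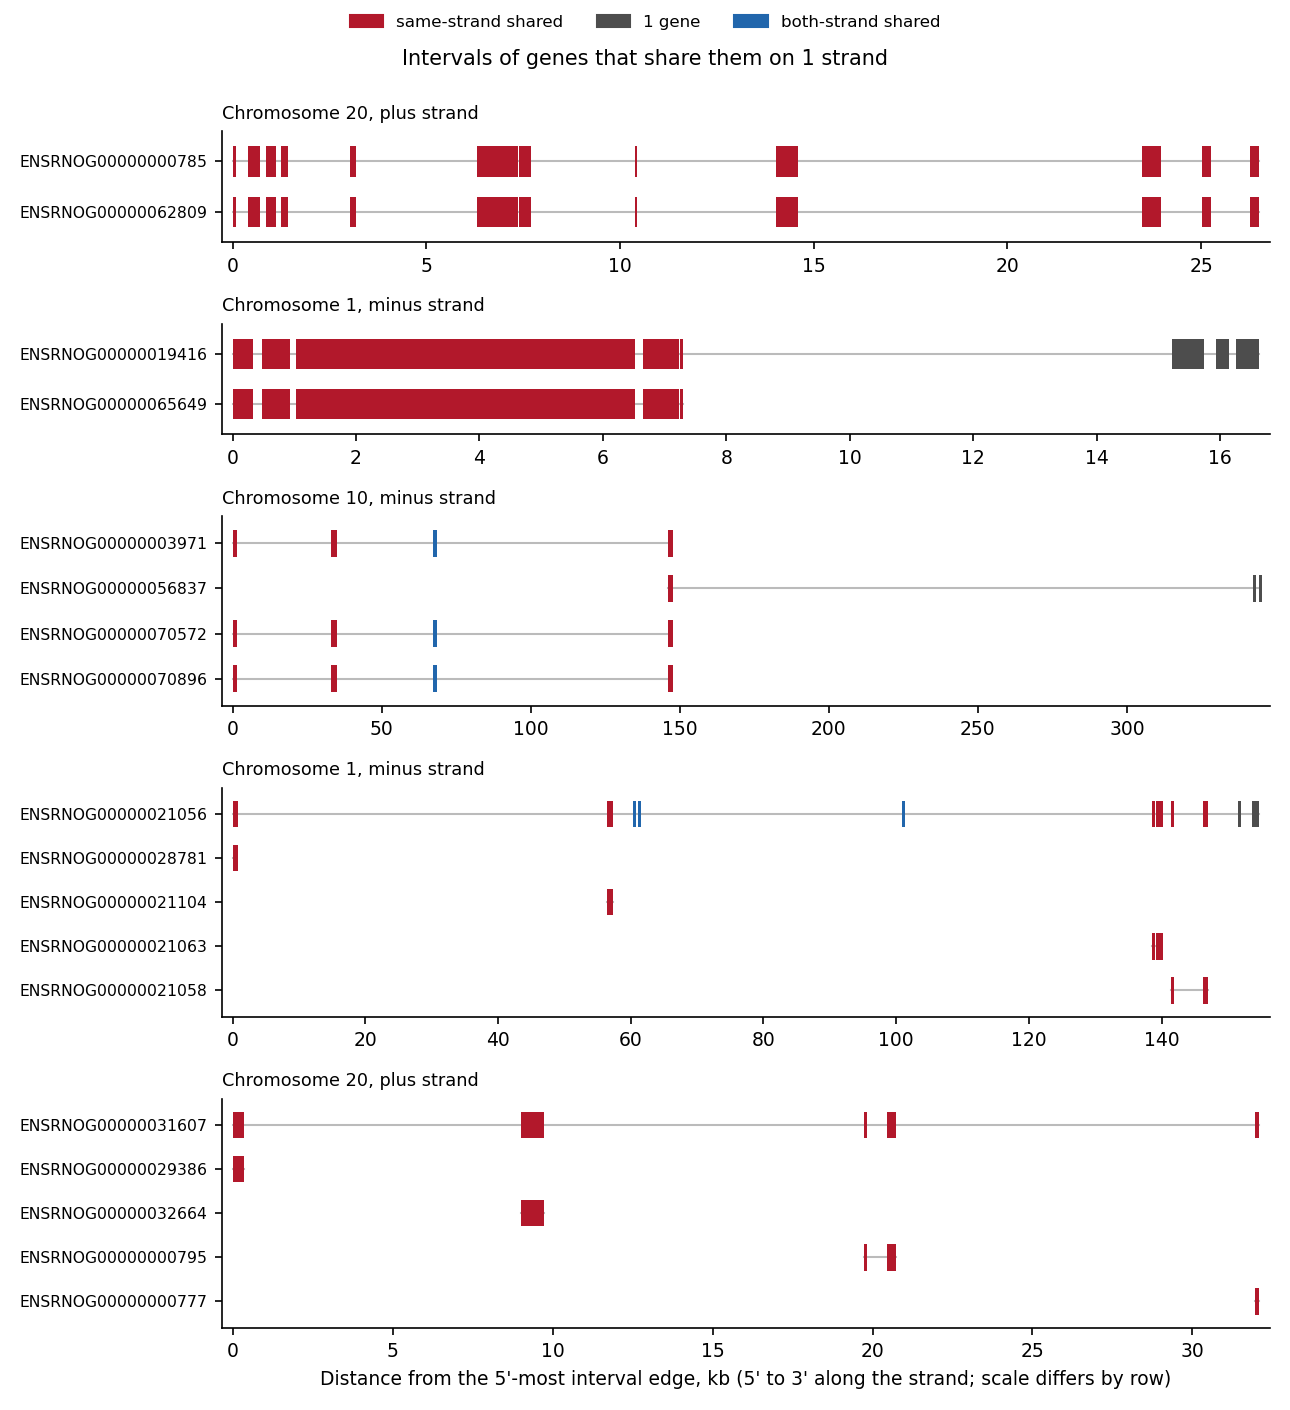
Intervals (boxes) of genes that share them, with distance along the strand from the 5'-most edge in kb on the horizontal axis, whose scale differs by row, and 1 line per gene ID. Boxes narrower than 1/350 of a row are drawn at that width, so close intervals can merge. The rows show the identical pair on chromosome 20, the contained pair on chromosome 1, the tandem overlap of 4 gene IDs on chromosome 10, and ENSRNOG00000021056 and ENSRNOG00000031607 with 4 partners each, placed 1 after another.

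The widest same-strand interval was also the widest in the list. It covered 448057 bp of chromosome 6, from 3182838 to 3630894, and was listed for ENSRNOG00000050220 and ENSRNOG00000069544 on the plus strand. It was the whole list of ENSRNOG00000069544, whereas ENSRNOG00000050220 held 4 further intervals, on both sides. As 0 distinct intervals of the list overlap, no other interval lay inside it. The next widest were 69353 bp on chromosome 18 (ENSRNOG00000019217 and ENSRNOG00000068793, 55573925 to 55643277), 51194 bp on chromosome 5 (ENSRNOG00000063649 and ENSRNOG00000070045, 158008366 to 158059559), 46745 bp on chromosome 10 (ENSRNOG00000003217, ENSRNOG00000003239 and ENSRNOG00000033143, 103590497 to 103637241) and 39715 bp on chromosome 2 (ENSRNOG00000015226 and ENSRNOG00000067753, 188056593 to 188096307). All 5 had widths off the 25 bp steps and lay over genes of which at least 1 had no other interval. Of the 18 same-strand intervals over 10000 bp, 13 lay over contained lists alone and 3 over identical ones. The single whole-step width among the 18 was 35925 bp, on chromosome 3 (ENSRNOG00000025889 and ENSRNOG00000047374), which is named because it was the only one.

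Genes with a same-strand interval held more intervals than the rest. Their mean was 3.64 per gene (SD 2.98, n = 600 genes) and their median 3, against 2.38 (SD 1.90, n = 12546 genes) and 2 in the other genes. The genes were not matched on length or number of intervals, so the part of either in the rule's choice of genes was not tested. For 358 of the 600 (59.7%, 95% Wilson interval 55.7 to 63.5) every listed interval was shared on the same strand. Only 187 (31.2%, 27.6 to 35.0) had at least 1 interval that was theirs alone, and 94 (15.7%, 12.98 to 18.8) had one shared across strands. For most of these gene IDs the list therefore holds no m6A interval that can be read for the gene by itself. The 480 single-gene intervals of these genes had a median width of 250 bp (95% interval 225 to 275), and 86.9% had whole-step widths (95% Wilson interval 83.6 to 89.6), above the 81.7% of all single-gene intervals.

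Gene IDs with high numbers were more frequent among genes with a same-strand interval. Ensembl gives higher numbers to gene models added later, and the highest in the list was 71212. Numbers of 60000 or above made up 158 of the 600 genes (26.3%, 95% Wilson interval 22.97 to 30.0) and 12.3% of the other 12546 (11.7 to 12.9). Of the 347 pairs, 124 (35.7%) held 1 such ID, 31 (8.93%) held 2 and 192 (55.3%) held none. In contained pairs the gene without own intervals had such a number in 53 of 227 (23.3%) and the larger gene in 41 (18.1%). Identical pairs and pairs in which both genes had own intervals were not counted in this way. The values therefore do not show in which kind of pair such IDs were most frequent. The limit of 60000 was chosen after the numbers had been seen.

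Neighbouring same-strand intervals of 1 gene set lay closer together than neighbours of a single gene. Neighbours were consecutive among the intervals listed for exactly the same gene set, or for the single gene alone. Intervals of any other gene set that lay between them were passed over. The median gap was 271.5 bp (95% interval 225 to 350, n = 366 neighbouring pairs), against 400 bp (375 to 425, n = 15162). Gaps over 10000 bp made up 7.65% (95% Wilson interval 5.35 to 10.8) of the first and 20.0% (19.4 to 20.7) of the second. Gaps of up to 100 bp were about as frequent, at 26.5% (22.2 to 31.3) and 23.8% (23.1 to 24.5). In 10 of the 366 pairs (2.73%) the second interval began where the first ended, as in 2.30% of single-gene neighbours. Gene spans were not available, so neighbours were not matched on the length over which a gap could lie. Starts up to 200 bp beyond the neighbour's end lay a multiple of 25 bp apart in 90.2% of 163 pairs, against 90.8% for a single gene. With gaps over 200 and up to 1000 bp the share was lower than for a single gene, at 77.1% of 96 pairs (95% Wilson interval 67.7 to 84.4) against 85.2% (84.0 to 86.3), and the single-gene share lay above the range of the same-strand one. It was 32.7% (21.8 to 45.9) against 29.3% (27.3 to 31.4) with gaps over 1000 and up to 5000 bp. With gaps over 5000 bp this was so in 3 of 52 pairs (5.77%), against 4.01%.

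Chromosomes differed in how many of their intervals were shared on 1 strand. The share ran from 0.974% on chromosome 19 (8 of 821, 95% Wilson interval 0.495 to 1.91) to 4.52% on chromosome 20 (37 of 818, 3.30 to 6.17) among autosomes. Chromosome 7 stood at 3.96% (74 of 1870, 3.16 to 4.94), chromosome 1 at 3.13% (118 of 3764, 2.62 to 3.74) and X at 2.76% (22 of 798, 1.83 to 4.14). Wilson intervals of chromosomes 1, 7 and 20 lay above the 2.32% of the whole list, and those of chromosomes 12, 18 and 19 below it, with chromosome 5 just below it too, at 1.58% (1.12 to 2.24). Without the pair of ENSRNOG00000000785 and ENSRNOG00000062809, with 13 intervals, the share of chromosome 20 was 2.98% (24 of 805, 2.01 to 4.40), a range that includes the 2.32% of the whole list. Chromosome 7 held 30 gene sets, none with over 7 intervals, and stood at 3.596% (2.84 to 4.54) without its largest. On chromosome 19, 5 of the 8 intervals belonged to ENSRNOG00000011552 and ENSRNOG00000031097, and the share was 0.368% (3 of 816, 0.125 to 1.08) without them, a pair named after its values were seen. On the Y chromosome 0 of 10 intervals were shared on 1 strand, which allows a share of up to 27.8% by the Wilson interval.

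**Figure D4:**
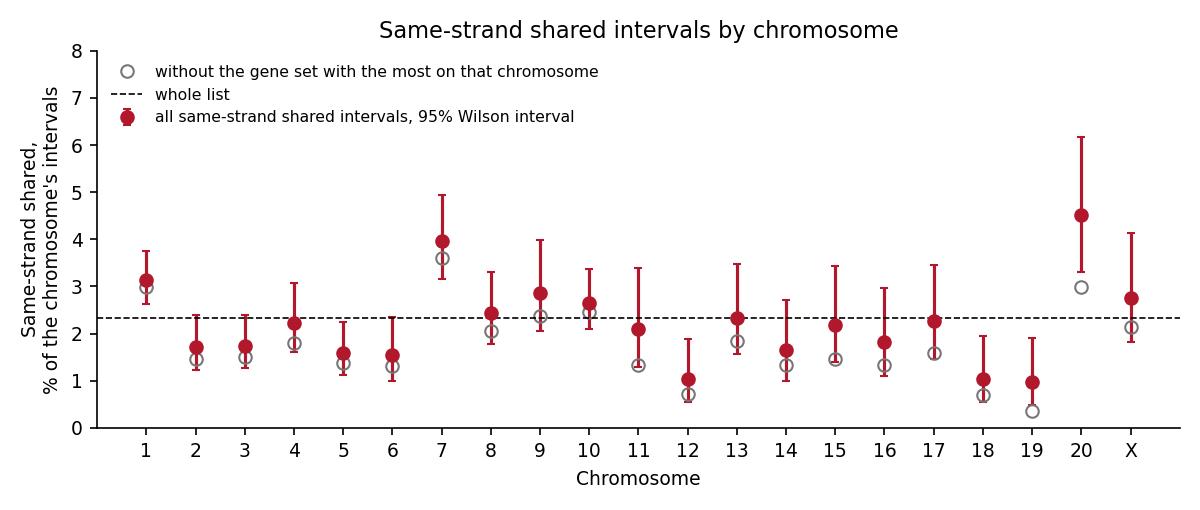
Same-strand shared intervals as a share of each chromosome's intervals (vertical axis, %), with 95% Wilson intervals, for the autosomes and X (horizontal axis). Open circles leave out the gene set with the most intervals on that chromosome, and the dashed line is the 2.32% of the whole list. Chromosomes 7 and 20 are highest, and the latter falls from 4.52% to 2.98% without its largest set.

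The mitochondrial genome had 1 same-strand interval among 12. It was 200 bp wide, from 7783 to 7982, and was listed for ENSRNOG00000031979 and ENSRNOG00000033299 on the plus strand. The first of these genes held 1 more interval, on the 3' side, and the second held none.

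The 680 intervals lay in 226 of the 2109 windows of 1 Mb that held any interval, with a median of 2 per window. In 77 of these windows there was 1, and in 48 there were 5 or more. The window with the most, from 108 to 109 Mb on chromosome 8, held 17 in 4 gene sets, 21.8% of its 78 intervals. The windows from 1 to 2 Mb and from 2 to 3 Mb on chromosome 20 held 11 and 12, and the boundary between them runs through the pair with 13 intervals.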

How the data were processed

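MeRIP-seq was run on 6 samples of fetal rat penile tissue, 3 control and 3 case by their titles. HISAT2 and the build Rnor_6.0 are named per the submitters' processing notes. The sources used here give no peak caller, threshold, annotation or pooling of samples. Per the file headers, the authors' deposited list gives chromosome, start, end, gene ID and gene strand (31999 rows, 0 of them duplicates). The highest end on chromosome 1, 260249035, lies well short of that chromosome's end in Rnor_6.0 and close to its end in mRatBN7.2, so the build is unsettled. Starts were taken as 0-based and are printed 1-based.

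No column belongs to a sample, so groups could not be compared. The RefSeq table (GRCr8) holds 0 Ensembl IDs and no genome of the file's build was used, so genes were not named and no sequence is shown. Shares have Wilson intervals and medians have 95% intervals from binomial order statistics. Python 3.11.15, numpy 2.4.6, pandas 2.3.3, scipy 1.17.1, networkx 3.6.1 and matplotlib 3.10.9 were used. The sorting of gene pairs was tested on simulated data. Named genes were those of the 5 sets with the most same-strand intervals, the 5 widest intervals, the 5 with the most genes, the 5 genes with the most partners, and any on Y or the mitochondrial genome. These rules, the members and the alternatives were chosen with earlier results of these data known.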

Additional observations from a re-analysis of the deposited data

How the results depend on the processing

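No paired analysis was possible because the list holds no values per sample, and replicates could not be left out for the same reason. Of 36 values recomputed under 8 alternatives and 1 more chosen after seeing the data, 27 stayed within the 95% interval of the reported value or, for the number of intervals, within 1.5 times of it. Counting each gene set once gave 314 intervals in place of 680 and a whole-step share of 75.2% in place of 82.4%. The median width of 275 bp became 279 bp without intervals of 50 bp, 225 bp with whole-step widths only and 300 bp with neighbours up to 100 bp apart joined. Whole-step widths only left 0.179% over 10000 bp, against 2.65%. Allowing further genes on the other strand added 131 intervals, for 811, and gave a whole-step share of 78.9%. Each of these alternatives removes, adds or joins intervals by construction. Among single-gene intervals the whole-step share of 81.7% was 86.9% in genes with a same-strand interval and 79.9% with 1 interval per gene; the cause was not tested. The limits set by depth could not be assessed, since the list carries no counts.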
